A study of Ipomoea batatas with 12 samples.

Results

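The genes described are 7 alpha-expansins of sweetpotato (Ipomoea batatas), IbEXPA3 (g3926), IbEXPA4 (g4923), IbEXPA25 (g42794), IbEXPA16 (g25447), IbEXPA17 (g25606), IbEXPA1 (g1306) and IbEXPA13 (g18539). They were picked by gene ID for their transcript levels in these libraries, so the levels are given as a description and carry no test. The choice was made out of 22 IbEXPA genes analysed here and 45142 genes in the deposited table. The study names 36 IbEXPA genes, and those beyond the 22 are absent from that table, so ranks and shares below cover the 22 only. Not all of the 7 genes were abundant. By mean FPKM (a level of fragments scaled by transcript length and library size) over the 12 libraries, IbEXPA3, IbEXPA4, IbEXPA25 and IbEXPA16 took ranks 1 to 4 of the 22, while IbEXPA17, IbEXPA1 and IbEXPA13 took ranks 7, 9 and 13. The rank of IbEXPA16 rests on 1 library, the one labelled WT at 4 months: without it the mean of IbEXPA16 is 5.10 in place of 8.69 FPKM and its rank 5, below IbEXPA10, which was not picked.

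Expansins are small secreted proteins that loosen plant cell walls without cutting the wall polymers. They act best at acid pH, are thought to weaken the contacts between cellulose microfibrils and matrix glycans, and so let a turgid cell enlarge. Alpha-expansins (EXPA) form the largest subfamily, next to beta-expansins (EXPB) and the expansin-like groups EXLA and EXLB. In a storage root they are of interest because bulking depends on the division and enlargement of parenchyma cells.

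The libraries came from roots of 2 genotypes grown in a greenhouse. MBP3-OE roots, labelled as overexpressing MBP3, were sampled at 20 days, 1 month and 4 months, with 3 libraries per age numbered 2, 3 and 8. Wild-type (WT) roots of the cultivar Taizhong 6 gave 1 library per stage, each made from roots of several plants, which the series text calls FR for fibrous roots, DR for tuberous roots in development and MR for those that were mature. By their labels these WT libraries have the same 3 ages as MBP3-OE, but the series text dates them to 20, 60 and 120 days after planting. The sources used here name neither the promoter nor the background of MBP3-OE, and do not say whether its numbers are lines or plants, so every p-value below measures only the spread between these samples.

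Library totals ran from 39424503 to 58486728 deposited counts. The MBP3 gene g4107 had 67.3 to 78.4 FPKM in 20-day MBP3-OE roots against 15.3 FPKM in FR, and 29.7 to 58.3 FPKM in 1-month MBP3-OE roots against 23.2 FPKM in DR. At 4 months the MBP3-OE range of 55.8 to 121 FPKM included the 83.2 FPKM of the WT library, so the genotype of the library labelled WT at 4 months, called MR here, was not separated by its MBP3 transcript, which holds for every comparison with MR below. Transcripts of 42 sporamin genes, which encode the storage protein of the tuberous root, summed to 495 to 1205 FPKM in 20-day, 3227 to 13340 FPKM in 1-month and 65836 to 136157 FPKM in 4-month MBP3-OE roots, and to 183, 2203 and 91502 FPKM in FR, DR and MR. The 4-month libraries of both genotypes thus held the most of this transcript, while the sample labels call every sample root. In bulk roots, fewer cells of a type and less RNA per cell cannot be told apart.

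IbEXPA1 lies on linkage group 1 (7829550 to 7831676, plus strand) and IbEXPA3 on the same group (28389618 to 28391033, minus strand). IbEXPA4 lies on linkage group 2 (4902476 to 4904274, minus strand), IbEXPA13 on group 5 (13829399 to 13831027, plus strand) and IbEXPA25 on group 11 (9641738 to 9643011, plus strand). IbEXPA16 (1056788 to 1058286) and IbEXPA17 (2084323 to 2085849) are both on the plus strand of linkage group 7, 1026036 bp apart. These are gene spans of the deposited table, whose genome build is not named there, and exon positions were not used here. All 7 genes carried the annotations plant-type cell wall loosening, held by 40 genes of the table, and syncytium formation, held by 24.

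Of the 7 genes, IbEXPA4, IbEXPA25 and IbEXPA17 were also measured by the study with quantitative PCR, and its primer pairs are shown because they name the transcript of each by sequence (5′ to 3′, the values of that assay were not used here).
IbEXPA4 forward: gtgagggcgagcgtgaag
IbEXPA4 reverse: tctttccgacgaaggtttgg
IbEXPA25 forward: aagcaacgccaaccttaacg
IbEXPA25 reverse: gcggtggtagttttgtcatttg
IbEXPA17 forward: agccaggagggattagattcac
IbEXPA17 reverse: gtgcttgaccgaccaaaaca

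In the protein set supplied by the study, which holds all 59 IbEXP proteins, the 7 predicted chains have 209 (IbEXPA17) to 341 residues (IbEXPA13). The IbEXPA17 chain starts with a stretch that lies inside the chain of IbEXPA4, and whether its start is missing was not tested. IbEXPA4 and IbEXPA17 were the most alike pair of the 7, with 84.2% identity over 209 aligned residues, followed by IbEXPA1 and IbEXPA25 with 80.7% over 238. The predicted protein of IbEXPA16 was the most divergent. It shared 52.0% to 61.9% with the other 6 and had 4 cysteines, against 8 or 9 in the others. It was also the 1 protein of the 7 in which a search found no histidine, phenylalanine and aspartate in a row. That run stands in 30 of the 36 IbEXPA proteins and is known from the first domain of alpha-expansins. Whether the gene model behind this predicted protein is correct was not tested, so these traits may not be those of the gene.

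Near copies can share reads, and the sources used here do not say how reads with several alignments were counted. IbEXPA3 has a neighbouring copy, IbEXPA2 (g3925), 5954 bp away and 84.5% identical in protein, and over the 12 libraries IbEXPA3 had 0.280 to 78.3 FPKM against 0 to 0.423 FPKM for IbEXPA2. IbEXPA13 was 93.8% identical to IbEXPA21, which had 0.235 to 1.28 FPKM, and its own low values of 0.138 to 1.89 FPKM are uncertain for that reason. IbEXPA12, 22594 bp from IbEXPA13, had 0.291 to 0.797 FPKM. IbEXPA17 was 87.6% identical to IbEXPA14, which had 0.551 to 4.27 FPKM. It was also 84.2% identical to IbEXPA4, which had 4.53 to 45.1 FPKM against 1.23 to 8.79 FPKM for IbEXPA17.

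Levels among the IbEXPA genes analysed were unequal. Mean FPKM over the 12 libraries was 28.6 for IbEXPA3, 18.1 for IbEXPA4, 12.1 for IbEXPA25 and 8.69 for IbEXPA16, then 4.06 for IbEXPA17, 3.07 for IbEXPA1 and 1.06 for IbEXPA13. Among the IbEXPA genes that were not picked, IbEXPA10 (6.60 FPKM), IbEXPA20 (5.09 FPKM) and IbEXPA5 (3.33 FPKM) lay above IbEXPA1, and IbEXPA13 lay below 6 of them. In 4-month MBP3-OE roots the order differed. IbEXPA4 led with a mean of 9.09 FPKM, ahead of IbEXPA20 (5.38 FPKM), IbEXPA17 (4.75 FPKM) and IbEXPA16 (3.59 FPKM), and IbEXPA3 took rank 15 with 0.546 FPKM. In MR IbEXPA16 led with 48.1 FPKM.

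**Figure D1:**
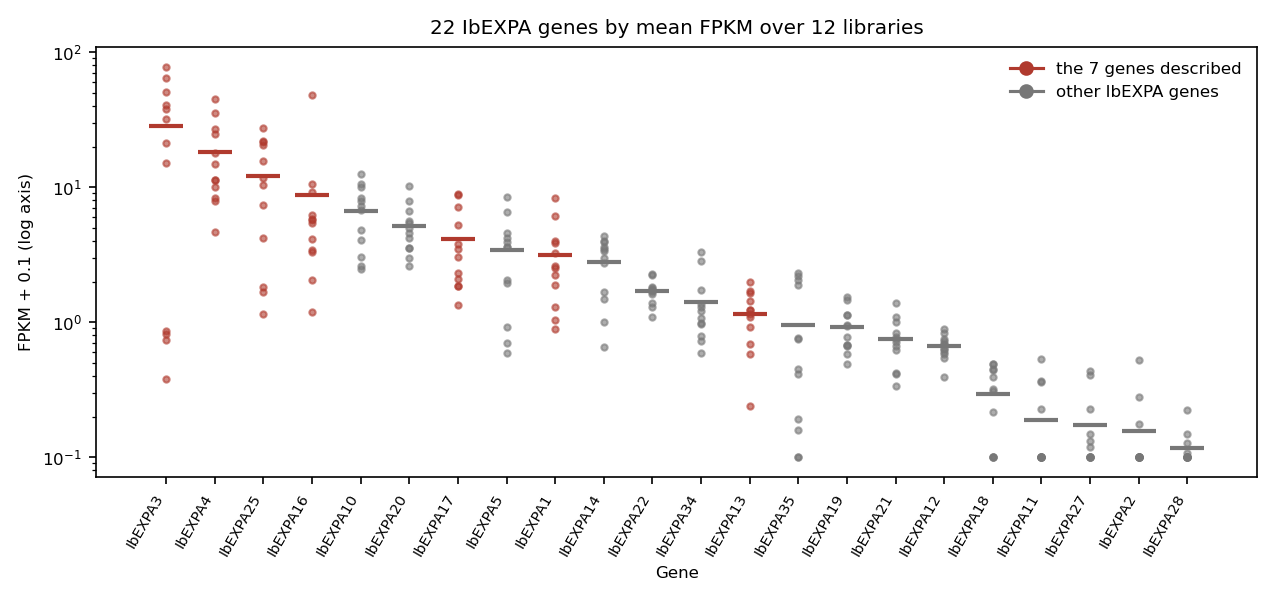
FPKM + 0.1 on a log axis for the 22 IbEXPA genes analysed, each point 1 library and each bar the mean over the 12 libraries, with the 7 genes described in red. IbEXPA3, IbEXPA4 and IbEXPA25 have the 3 highest means with or without MR, IbEXPA16 has rank 4 with MR and 5 without it, and IbEXPA13 ranks 13.

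IbEXPA3, described as expansin-A2-like, had the highest level of the IbEXPA genes analysed in all 20-day libraries, in FR and in DR. It also led in 1 of the 3 libraries of 1-month MBP3-OE roots and stayed under 1 FPKM in all 4-month libraries. In MBP3-OE it had 78.3, 37.9 and 64.7 FPKM at 20 days (replicates 2, 3 and 8), 15.2, 21.0 and 31.8 FPKM at 1 month, and 0.280, 0.642 and 0.716 FPKM at 4 months. The 3 ages did not overlap. The WT libraries FR, DR and MR had 40.8, 50.6 and 0.755 FPKM. The highest library held 4368 counts of the gene and the lowest 16.

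In MBP3-OE, IbEXPA3 fell at each step (edgeR, Benjamini-Hochberg adjusted p over 28065 genes, 3 libraries per age). The log2 fold change was -1.49 (standard error 0.37, adjusted p = 0.035) at 1 month against 20 days, -5.00 (0.45, adjusted p = 0.0011) at 4 months against 1 month and -6.50 (0.48, adjusted p = 7.7e-05) at 4 months against 20 days. The call for the first step did not hold without 20-day replicate 2 (adjusted p = 0.122) or 8 (0.114), or without 1-month replicate 2 (0.099) or 3 (0.087), and over all alternatives its adjusted p ran from 0.0012 to 0.122. On the scale of log2(FPKM + 1), which understates changes of low values, the later falls were -3.89 and -5.26 by limma.

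IbEXPA25 (expansin-A1) was also lower at 4 months than at both earlier ages, and its FPKM lay above that of IbEXPA3 in every 4-month library of either genotype. The MBP3-OE libraries had 27.3, 22.1 and 11.7 FPKM at 20 days, 7.25, 21.6 and 15.6 FPKM at 1 month and 1.58, 1.72 and 4.13 FPKM at 4 months. The 20-day and 1-month libraries overlapped and all 4-month libraries lay below both. In WT, FR, DR and MR had 10.3, 20.6 and 1.06 FPKM.

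By edgeR, IbEXPA25 fell in MBP3-OE by 2.18 on the log2 scale at 4 months against 1 month (standard error 0.52, adjusted p = 0.021) and by 2.72 at 4 months against 20 days (0.53, adjusted p = 0.0037). The difference of -0.55 at 1 month against 20 days did not pass (0.50, adjusted p = 0.502). Without 4-month replicate 8 the falls were -2.82 and -3.38. The call against 1 month did not hold without 1-month replicate 3 (adjusted p = 0.059) or 8 (0.054) or without 4-month replicate 2 (0.055), and its adjusted p ran from 0.00021 to 0.059 over all alternatives.

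IbEXPA4 (expansin-A4-like) kept a moderate level at 4 months. Its MBP3-OE values were 24.7, 26.7 and 17.9 FPKM at 20 days, 9.97, 11.3 and 35.6 FPKM at 1 month and 8.19, 7.81 and 11.3 FPKM at 4 months. The 4-month libraries lay below all 20-day libraries, and the 1-month libraries spread over both. In WT, FR, DR and MR had 14.7, 45.1 and 4.53 FPKM, so that DR stood above every other library.

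IbEXPA4 passed the test at no step in MBP3-OE. At 4 months against 20 days its log2 fold change was -1.05 (standard error 0.46, edgeR adjusted p = 0.089, 0.0096 to 0.204 over the alternatives). That difference passed with DESeq2 (-1.11, adjusted p = 0.038), with library totals as the only scaling (-1.32, 0.043), with limma on log2(FPKM + 1) (-1.25, 0.028) or log2(FPKM + 0.1) (-1.33, 0.030), and without 1-month replicate 8 (-1.05, 0.0096). At 1 month against 20 days the value was -0.37 (0.45, adjusted p = 0.624) and turned to -1.18 (adjusted p = 0.044) without that same 1-month replicate 8, whose 35.6 FPKM stood apart from the 9.97 and 11.3 FPKM of the others.

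IbEXPA3, IbEXPA4 and IbEXPA25 moved together over the libraries. Pearson r of log2(FPKM + 1) over the 12 libraries was 0.92 for IbEXPA3 and IbEXPA25, 0.83 for IbEXPA4 and IbEXPA25 and 0.78 for IbEXPA3 and IbEXPA4. These libraries share their ages, and over the 8 libraries other than the 4-month ones the same values were 0.46, 0.54 and 0.56. IbEXPA16 had r values of -0.22 with IbEXPA3, -0.31 with IbEXPA25 and -0.43 with IbEXPA4 over the 12 libraries and -0.80, -0.51 and -0.50 over those 8, but 0.28, 0.33 and 0.27 over the 9 MBP3-OE libraries, so the sign turned with the libraries taken.

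**Figure D2:**
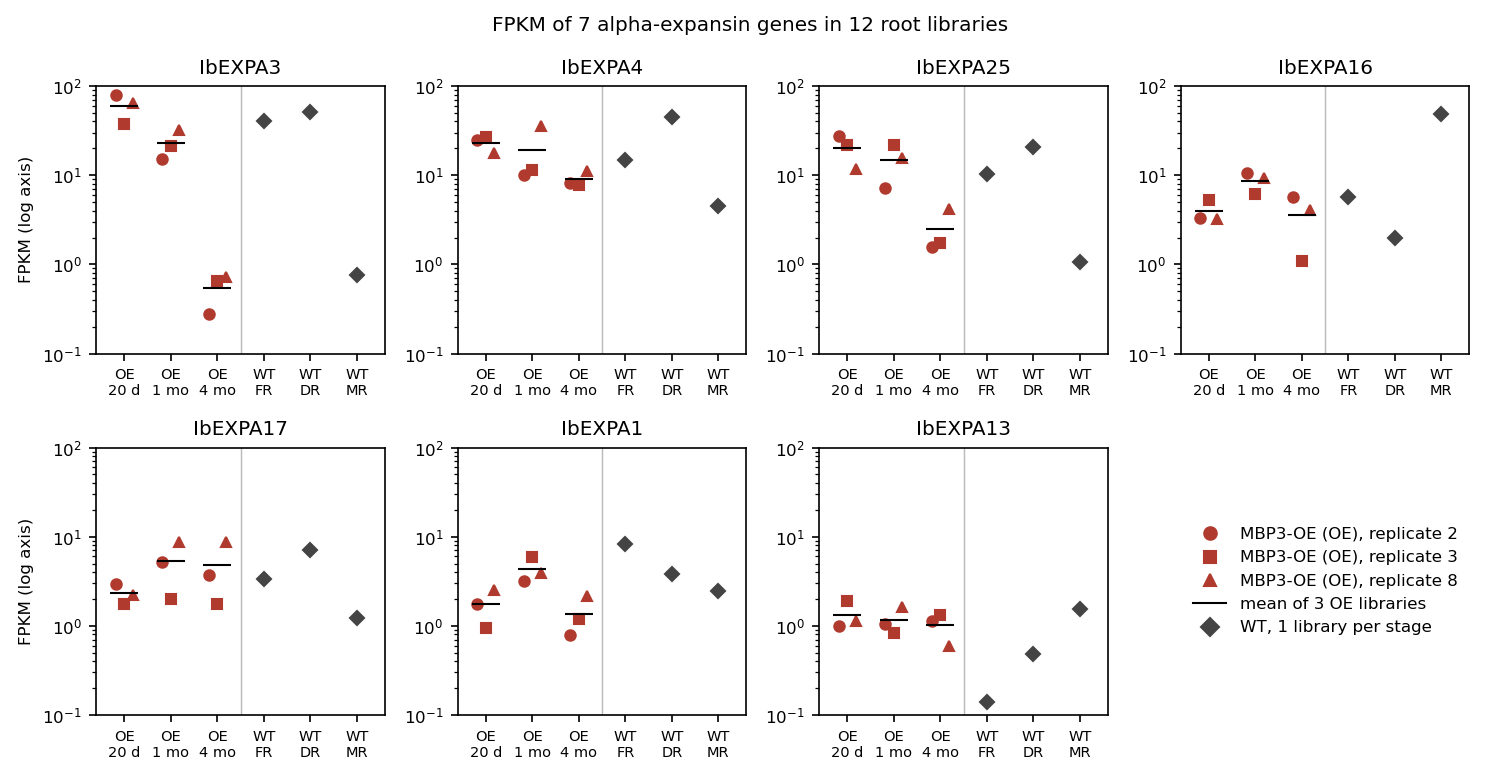
FPKM on a log axis of the 7 genes in each library, with MBP3-OE (OE) at 20 days, 1 month and 4 months left of WT FR, DR and MR, symbols for the replicate numbers and a bar for the mean of 3 libraries. IbEXPA3 lies between 0.280 and 0.755 FPKM in the 4-month libraries of both genotypes, and IbEXPA16 reaches 48.1 FPKM in MR, the library labelled WT at 4 months.

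IbEXPA16 (expansin-A4-like) behaved unlike the 3 genes above. In MBP3-OE it had 3.31, 5.30 and 3.24 FPKM at 20 days, 10.5, 6.12 and 9.20 FPKM at 1 month and 5.65, 1.09 and 4.03 FPKM at 4 months. The 1-month libraries lay above all others of MBP3-OE. In WT it had 5.69 and 1.95 FPKM in FR and DR and 48.1 FPKM in MR, on 2679 deposited counts. That single library stood above all others.

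None of the age differences of IbEXPA16 in MBP3-OE passed edgeR's test. The log2 fold changes were 1.06 (standard error 0.56, adjusted p = 0.242) at 1 month against 20 days, -0.86 (0.56, adjusted p = 0.283) at 4 months against 1 month and 0.20 (0.56, adjusted p = 0.789) at 4 months against 20 days. The second of these passed with limma on log2(FPKM + 1) (-1.19, adjusted p = 0.046). The high value rests on MR alone. At 4 months against 1 month the age difference of MBP3-OE minus that of WT was -5.77 by edgeR (standard error 1.25) and -5.73 by DESeq2. It did not pass with edgeR and passed with DESeq2. This difference was chosen after the values were seen, with 1 WT library per stage. It rests on MR, which also set the rank of IbEXPA16, so the pass is no support. Over all genes, edgeR called 1 of 28065 for this difference (0.00356%) and DESeq2 called 665.

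The make-up of the alpha-expansin transcripts differed between the libraries. The summed FPKM of the 22 IbEXPA genes was 143 ± 22.5 (SD, n = 3) in 20-day, 103 ± 34.0 (n = 3) in 1-month and 39.6 ± 13.0 (n = 3) in 4-month MBP3-OE roots, and 104, 158 and 75.8 in FR, DR and MR. The 7 genes made up 78.8% ± 4.74, 73.0% ± 5.40 and 57.3% ± 3.91 of that sum at the 3 ages of MBP3-OE, and 80.1%, 81.9% and 78.7% in FR, DR and MR. They were picked for their levels, so a large share is no finding in itself.

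Within the sum, IbEXPA3 took 28.8% to 50.3% in 20-day, 19.4% to 23.6% in 1-month and 0.795% to 2.18% in 4-month MBP3-OE roots, and 39.3%, 32.0% and 0.996% in FR, DR and MR. In all 3 of the 4-month MBP3-OE libraries IbEXPA4 had the highest level of the IbEXPA genes analysed, with 20.8% to 26.6% of the sum. In MR IbEXPA16 had the highest level, with 63.5%, and IbEXPA4 had 5.97%. The highest alpha-expansin at 4 months thus differed between the 2 labelled genotypes, with 1 WT library and no test.

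**Figure D3:**
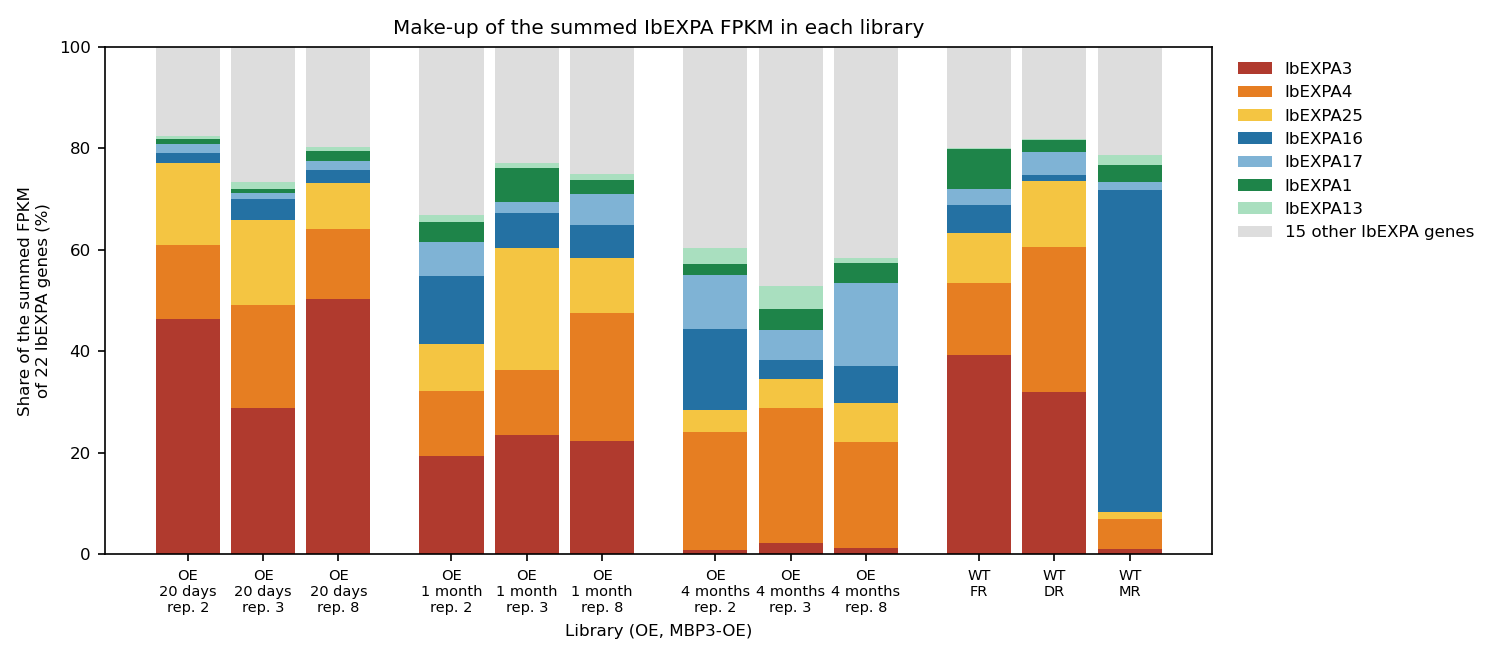
Share of the summed FPKM of the 22 IbEXPA genes taken by each of the 7 genes (colours) and by the other 15 (grey) in each library, with MBP3-OE (OE) left of WT. IbEXPA3 takes 28.8% to 50.3% at 20 days and under 2.2% in every 4-month library, while IbEXPA16 takes 63.5% in MR.

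IbEXPA17 (expansin-A6-like) spread more widely between replicates at 1 month and 4 months than at 20 days, as did genes in general (the common coefficient of variation at these ages, youngest first, was 0.235, 0.406 and 0.503). The MBP3-OE libraries had 2.95, 1.74 and 2.24 FPKM at 20 days, 5.14, 1.99 and 8.73 FPKM at 1 month and 3.72, 1.76 and 8.79 FPKM at 4 months, and 3.37, 7.04 and 1.23 FPKM in FR, DR and MR. Replicate 3 was the lowest at each age, so the ages overlapped. No difference passed edgeR's test. The largest, at 4 months against 20 days, was 1.37 (standard error 0.68, adjusted p = 0.125, 0.041 to 0.526 over the alternatives) and passed without 4-month replicate 3 (1.79, adjusted p = 0.041).

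IbEXPA1, described as an expansin of sweetpotato itself, was highest in FR. Its levels in MBP3-OE were 1.77, 0.947 and 2.52 FPKM at 20 days, 3.18, 5.98 and 3.89 FPKM at 1 month and 0.785, 1.21 and 2.13 FPKM at 4 months, and 8.21, 3.77 and 2.44 FPKM in FR, DR and MR. The 1-month libraries lay above the other MBP3-OE libraries. Neither the difference of 1.22 at 1 month against 20 days (standard error 0.47, edgeR adjusted p = 0.124) nor that of -1.28 at 4 months against 1 month (0.47, adjusted p = 0.081, 0.017 to 0.209 over the alternatives) passed the test. The difference at 4 months against 1 month did pass with DESeq2 (-1.32, adjusted p = 0.030), with library totals alone (-1.62, 0.038), with limma on log2(FPKM + 1) (-1.18, 0.017) or log2(FPKM + 0.1) (-1.65, 0.023), and without 4-month replicate 8 (-1.81, 0.040).

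IbEXPA13 (expansin-A1-like) stayed low throughout. In MBP3-OE it had 0.993, 1.89 and 1.13 FPKM at 20 days, 1.06, 0.825 and 1.61 FPKM at 1 month and 1.12, 1.33 and 0.593 FPKM at 4 months. The ages overlapped and the log2 fold changes of -0.28, 0.15 and -0.13 did not pass edgeR's test (adjusted p = 0.707, 0.817 and 0.825). In WT, FR, DR and MR had 0.138, 0.478 and 1.55 FPKM, on 11 counts in FR, the fewest of any of the 7 genes in any library. At 4 months against 20 days the age difference of MBP3-OE minus that of WT was -3.69 (standard error 0.94, edgeR adjusted p = 0.222), where edgeR called 0 of 28065 genes (3086 had an unadjusted p under 0.05) and DESeq2 called 746, IbEXPA13 among them (-3.69, adjusted p = 0.026).

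A gene was called where edgeR's adjusted p was below 0.05 and the change was 2-fold or more. At 1 month against 20 days in MBP3-OE, 1 of the 7 fell and none rose, where 3.49% of 28065 genes fell and 9.20% were called in either direction. At 4 months against 1 month 2 of the 7 fell, where 9.56% of all genes fell and 17.0% were called. At 4 months against 20 days 2 fell, where 17.8% of all genes fell and 35.2% were called. With 7 genes these counts are too small to be read as more or fewer than the background. The median log2 fold change of the 7 genes was -0.28, -0.86 and -0.13 in the 3 comparisons, beside 0.03, -0.01 and 0.02 over all genes. Scaling by library totals alone moved the median of all genes to -0.33 at 4 months against 1 month and -0.23 at 4 months against 20 days, and the calls of IbEXPA3 and IbEXPA25 passed there too.

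**Figure D4:**
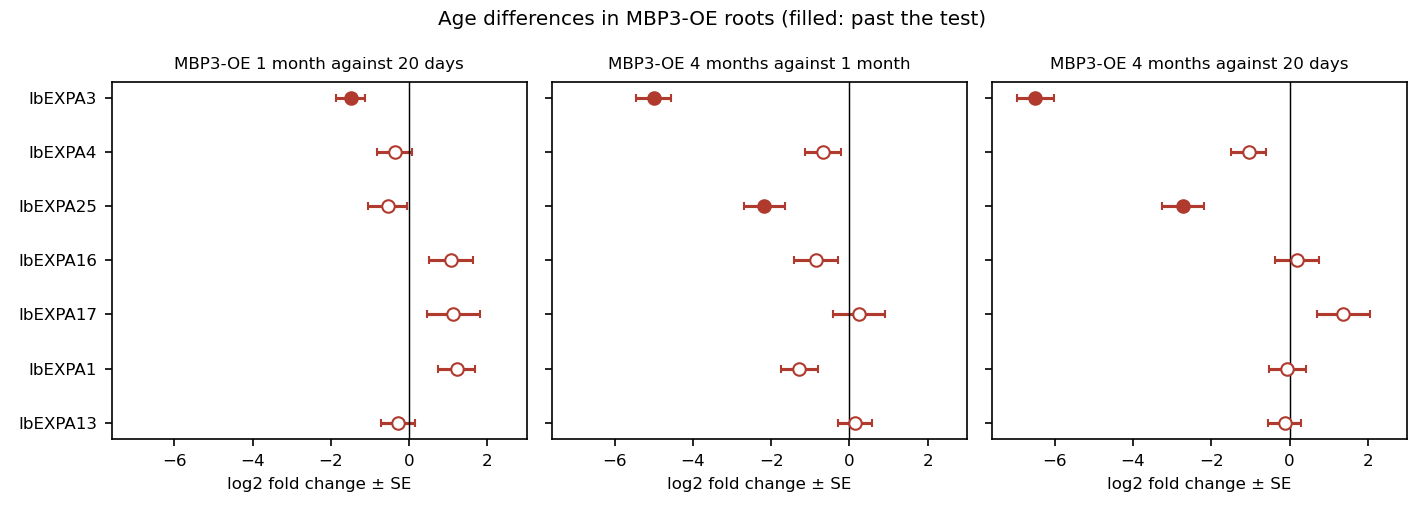
Fitted log2 fold change ± standard error of each of the 7 genes between ages of MBP3-OE (edgeR, 3 libraries per age), with filled points for genes called (adjusted p below 0.05 and a change of 2-fold or more). IbEXPA3 is filled in all 3 panels and IbEXPA25 in the 2 that involve 4 months.

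In WT, with 1 library per stage and no test, a gene was counted where the ratio of FPKM + 1 passed 2-fold. Between DR and FR this held for 2 of the 7 genes, IbEXPA4 (log2 ratio 1.55) and IbEXPA16 (-1.18), where it held for 16.8% of all genes. Between MR and DR it held for 5 of 7, where it held for 28.1% of all genes. IbEXPA16 was higher (4.06) and IbEXPA3 (-4.88), IbEXPA25 (-3.39), IbEXPA4 (-3.06) and IbEXPA17 (-1.85) were lower in MR. Between MR and FR it held for 6 of 7, against 37.6% of all genes, with IbEXPA16 (2.88) and IbEXPA13 (1.16) higher and IbEXPA3 (-4.57), IbEXPA25 (-2.45), IbEXPA4 (-1.51) and IbEXPA1 (-1.42) lower in MR. With 0.1 in place of 1 added to FPKM the count between DR and FR was 5 of 7, where 25.8% of all genes passed.

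None of the 7 genes differed between MBP3-OE and WT averaged over the 3 ages by edgeR's test, where 0.164% of all genes did. The ages of WT are those of its labels. Their log2 fold changes ran from -0.96 (IbEXPA1, standard error 0.36, adjusted p = 0.238) to 1.29 (IbEXPA13, 0.39, adjusted p = 0.157), and 2 of the 7 had an unadjusted p under 0.05. DESeq2 called 1 of them, IbEXPA13 (1.28, adjusted p = 0.040), where it called 3.53% of all genes, and limma called none. For IbEXPA13 the MBP3-OE libraries had 0.993 to 1.89 FPKM at 20 days against 0.138 FPKM in FR and 0.825 to 1.61 FPKM at 1 month against 0.478 FPKM in DR, while at 4 months they had 0.593 to 1.33 FPKM against 1.55 FPKM in MR. The spread in this test came from the MBP3-OE replicates only, and WT, with 1 library per age, was taken to have the same. Over 20 days and 1 month alone the values of IbEXPA4 (0.12, then -0.36), IbEXPA16 (-0.70, then 0.76) and IbEXPA17 (0.33, then -0.54) changed sign, none past the test.

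The other expansins are counted at 4 months against 20 days in MBP3-OE, where 17.8% of all genes fell and 35.2% were called, and no difference between the lists was tested. Of 10 tested IbEXPA genes outside the 7, 1 fell. That gene, IbEXPA10, was named after its value was seen (log2 fold change -1.58, standard error 0.27, edgeR adjusted p = 0.0021). Of 8 tested IbEXLB genes 5 fell, of 2 IbEXPB genes 1 fell, and the 1 tested IbEXLA gene fell. No expansin of these groups rose. The median of the IbEXLB genes was -4.73, beside -0.13 for the 7 genes and 0.02 over all genes.

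Genes of proton pumps and of wall enzymes were compared by lists of deposited descriptions, and whether the listed proteins act with expansins was not tested. Plasma membrane proton pumps acidify the wall, the condition in which expansins are active, and 3 of 6 tested fell and 1 rose at 4 months against 20 days in MBP3-OE, where 17.8% of all genes fell and 35.2% were called. Their most abundant gene, g16687, had 118 to 179 FPKM in 20-day, 34.3 to 73.2 FPKM in 1-month and 20.8 to 34.3 FPKM in 4-month MBP3-OE roots, and 258, 154 and 14.5 FPKM in FR, DR and MR. It fell by 2.20 on the log2 scale at 4 months against 20 days (standard error 0.30, edgeR adjusted p = 0.00072).

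Xyloglucan endotransglucosylases, which cut and rejoin xyloglucan chains, rose in 8 and fell in 7 of 26 genes in the same comparison. Their most abundant gene, g16528, had 137 to 729 FPKM in 4-month against 16.5 to 59.8 FPKM in 20-day MBP3-OE roots (log2 fold change 3.38, standard error 0.64, edgeR adjusted p = 0.0032), and 40.6 FPKM in MR. Of 28 pectin methylesterases 3 rose and 9 fell, of 37 polygalacturonases 5 rose and 10 fell, and of 17 endo-beta-1,4-glucanases 2 rose and 3 fell. The most abundant pectin methylesterase, g59313 (1.44, standard error 0.27, adjusted p = 0.0030), and endoglucanase, g61572 (1.88, 0.21, adjusted p = 0.00031), rose at 4 months against 20 days. The most abundant polygalacturonase, g30343, did not pass there (-0.97, 0.73, adjusted p = 0.299) and fell at 4 months against 1 month (-2.41, 0.76, adjusted p = 0.0499). These counts, too, stand against the 35.2% of all genes called there, and nothing is read from them about the lists.

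The cell-type markers moved with age as well. The 5 vessel genes, of which none was at 0 in all libraries of a group, summed to 48.8 to 77.2 FPKM in 20-day, 15.7 to 38.8 FPKM in 1-month and 7.34 to 8.34 FPKM in 4-month MBP3-OE roots, and to 48.3, 33.0 and 6.82 FPKM in FR, DR and MR. In both labelled genotypes these sums, and those of the root hair genes given next, were lowest at 4 months. The 9 root hair genes summed to 80.4 to 108, 74.4 to 83.2 and 49.1 to 67.1 FPKM at the 3 ages of MBP3-OE, and to 73.5, 107 and 66.4 FPKM in FR, DR and MR. The 7 starch synthesis genes summed to 45.8 to 72.4, 186 to 494 and 1239 to 1355 FPKM in MBP3-OE, and to 43.9, 135 and 393 FPKM in WT. The 19 green shoot genes summed to 67.5 to 157, 209 to 901 and 3651 to 7457 FPKM in MBP3-OE, and to 58.7, 149 and 448 FPKM in WT, so that 4-month MBP3-OE roots stood far above MR in both lists. The part of these cell types in the expansin levels was not tested.

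The genes whose pattern was most like each of the 7 were ranked by Pearson r of log2(FPKM + 1) over the 12 libraries, as a description. For IbEXPA3 they were g4706 (P-loop NTPase LPA1 homolog, r = 0.99), g63000 (homeobox-leucine zipper ATHB-15-like, 0.99) and g43735 (eukaryotic initiation factor 4A-14, 0.99). For IbEXPA25 they were g59704 (CDPK-related kinase 5-like, 0.97), g38669 (26S proteasome subunit 14 homolog, 0.97) and g18045 (GDSL esterase CPRD49-like, 0.96). For IbEXPA4 they were g19559 (endoglucanase 6-like, 0.93), g1712 (a WEB family protein, 0.92) and g43923 (an RNA helicase, 0.91).

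The other 4 genes had lower maxima. IbEXPA16 was most like g1115 (methionine aminopeptidase 1D, r = 0.91), g51192 (CDI-like, 0.88) and g3280 (ubiquitin ligase ATL9-like, 0.86), and IbEXPA1 like g33689 (late blight resistance homolog R1A-10, 0.91), g60532 (aldehyde oxidase GLOX-like, 0.88) and g286 (receptor kinase THESEUS 1, 0.88). IbEXPA17 was most like g556 (RSI-1-like, 0.89), g46823 (homeobox protein 2-like, 0.84) and g60224 (a kinase-like protein, 0.84), and IbEXPA13 like g54456 (switch 2, 0.86), g63775 (RABC2a-like, 0.85) and g29300 (an F-box protein, 0.84). With 12 libraries and 28065 genes compared, such values describe these libraries and carry no test. IbEXPA16 had 48.1 FPKM in MR and at most 10.5 FPKM elsewhere, and its r values with these genes were not computed without MR.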

How the data were processed

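Reads were trimmed with cutadapt 1.9, aligned with HISAT2 2.0.4 and quantified with StringTie 1.3.4d, per the labels. The authors deposited an FPKM value and a whole-number count per gene and library. How the counts were made is not given in the sources used here, and a count need not be 1 read. Counts were fitted with edgeR 4.0.16 (quasi-likelihood, TMM, 6 groups of genotype and age, 12 libraries) over the 28065 genes whose mean FPKM reached 0.5, which all 7 genes passed. Calls needed an adjusted p below 0.05 together with a change of 2-fold or more. The standard errors given with edgeR were derived, as the absolute log2 fold change divided by the square root of the F statistic. Alternatives used limma 3.58.1, DESeq2 1.42.0, other scalings, a replicate block and each MBP3-OE library left out. WT stages were compared by ratios of FPKM + 1. The genes and lists were chosen with earlier results of these data known. Named genes were the 7, their close relatives (IbEXPA6 was not analysed here), the most abundant gene of each list and the 3 most alike genes. IbEXPA5, IbEXPA10, IbEXPA20 and IbEXPA21 were named after their values were seen. Proteins were aligned with Biopython 1.88.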

Additional observations from a re-analysis of the deposited data

Results flagged for a closer look

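For IbEXPA1, IbEXPA3 and IbEXPA16 all MBP3-OE libraries of 1 month lay on one side of all those of 20 days, while DR lay on the other side of FR. IbEXPA1 and IbEXPA16 had higher levels at 1 month in MBP3-OE and lower levels in DR, and IbEXPA3 the reverse. For IbEXPA3 the WT gap was small, with 50.6 FPKM in DR against 40.8 FPKM in FR. The share of all genes with such a pattern was not counted, so nothing is read from the number of genes found. The age difference of MBP3-OE minus that of WT was 2.52 on the log2 scale for IbEXPA1 (standard error 0.95, edgeR adjusted p = 0.749), -1.62 for IbEXPA3 (0.74, adjusted p = 0.820) and 2.79 for IbEXPA16 (1.15, adjusted p = 0.773), none past the test. Over all genes edgeR called 0 for this difference (1730 had an unadjusted p under 0.05) and DESeq2 called 183, none of the 7 among them. IbEXPA16 also had lower levels at 4 months than at 1 month in all MBP3-OE libraries and a higher level in MR, the library labelled WT at 4 months, than in DR. That difference was -5.77 by edgeR (standard error 1.25), where it did not pass, and it passed with DESeq2 alone of the tools run. It rests on MR, which also set the rank of IbEXPA16, so the pass is no support. These differences were chosen after the values of the 7 genes were seen, and WT had 1 library per stage.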

How the results depend on the processing

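Of 812 fold changes of the 7 genes under alternatives, 757 kept their direction and side of the threshold, 16 passed it newly, 7 no longer did and 32 changed sign, none of them past the test. Leaving out 1 library gave 0 to 2 of the 7 genes called at 1 month against 20 days, 1 to 3 at 4 months against 1 month and 0 against WT, and 895 to 3501, 2986 to 5856 and 2 to 196 genes over all. DESeq2 called 3962 genes at 1 month against 20 days and, between MBP3-OE and WT, 992 genes (3.53%) and 1 of the 7. For MBP3-OE against WT, in place of 46 genes, median-ratio size factors gave 24, limma on log2(FPKM + 1) 112, a replicate block 2 and the 20-day and 1-month libraries alone 3. Limma on log2(FPKM + 1) called 4 of the 7 at 4 months against 1 month (17.2% of all genes), and 0.1 added to FPKM gave 5 of 7 past 2-fold between DR and FR (25.8% of all genes).

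Scaling by library totals, limma with 1 and limma with 0.1 added to FPKM gave, at 4 months against 1 month, -0.15, -0.10 and -0.20 for IbEXPA13 and -0.12, -0.16 and -0.21 for IbEXPA17, and at 4 months against 20 days -0.12, -0.24 and -0.37 for IbEXPA16 (block -0.062). On 20 days and 1 month alone, MBP3-OE against WT was -0.36 for IbEXPA4, 0.76 for IbEXPA16 and -0.54 for IbEXPA17. The difference of age effects at 1 month against 20 days was -0.094 and -0.077 by limma and -0.037 with the block for IbEXPA17, and that at 4 months against 20 days -0.16 for IbEXPA25 by limma. The cause was not tested.

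Leaving out 1 library gave -0.56 to 0.056 for IbEXPA13 at 1 month against 20 days. At 4 months against 1 month it gave -0.96 to 0.13 for IbEXPA4, -0.058 to 0.43 for IbEXPA13 and -0.59 to 0.77 for IbEXPA17. It gave, at 4 months against 20 days, -0.61 to 0.33 for IbEXPA1, -0.32 to 0.21 for IbEXPA13 and -0.36 to 0.65 for IbEXPA16. Against WT it gave -0.15 to 0.21 for IbEXPA4, and for the differences of age effects -0.26 to 0.66 (IbEXPA17, 1 month against 20 days) and -0.21 to 0.69 (IbEXPA25, 4 months against 20 days).

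Library totals alone made 22.5% of the calls higher at 4 months against 1 month, beside 43.9%, and 37.3% at 4 months against 20 days, beside 49.6%. Between MR and DR, 2669 genes were higher and 4958 lower by FPKM, and 4291 and 4254 by scaled counts. Deviations of same-numbered MBP3-OE libraries correlated at -0.04 to 0.09 over 9 pairs, and those of other numbers at -0.10 to 0.09 over 18. Of 18 combinations of a library and another age, 9 had their best match with the own number. With 3 libraries per age and values this near 0, it cannot be decided whether the numbers pair the libraries. The replicate block changed no call of the 7 genes. Depth limits IbEXPA13 most, with 11 counts in FR. The comparison over 20 days and 1 month, the differences of age effects and the means without MR were chosen after seeing the data.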
